A study of Mus musculus with 168 samples.

Results

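The comparison described here set the cortex of 8 Q140 mice against that of 8 Q20 mice, all 6 months old and 4 female and 4 male in each group. These 16 small RNA libraries are the ones titled HET (Q140) and HET (Q20) at that age among the 168 cortex libraries of the series, and the 6-month wild-type libraries were left out. Every mouse of both groups was heterozygous on the C57BL/6 strain: it carried 1 wild-type Htt allele and 1 engineered allele in which human HTT exon 1 with the CAG repeat of its line had been knocked into mouse Htt. The Q20 line stands as the control because its repeat length lies in the unaffected human range, and the Q140 line carries a repeat far beyond the disease threshold. Both groups therefore carry such a knock-in and differ in the length of the repeat and in the line, each with its own separately named allele. The mice were bred from HET males of each line and C57BL/6J females. The repeat is expressed from the endogenous Htt locus, not from a cell-type promoter, and the cortex was taken as bulk tissue.

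MicroRNAs are short RNAs that are cut from hairpin precursors by Drosha and Dicer and loaded into Argonaute proteins, where the seed at their 5′ end pairs with target messenger RNAs and lowers their translation and stability. Huntington's disease is caused by the expanded CAG repeat, which encodes a long polyglutamine stretch in huntingtin, and it damages striatal and deep-layer cortical neurons first. In the adult cortex many abundant microRNAs are made mainly by neurons (Mir124a, Mir128, Mir9), others by glia, vessels or blood, and a few families (Mir200, Mir183) are known from epithelia and sensory neurons rather than from cortical tissue. In bulk cortex fewer cells of a type and less RNA per cell cannot be told apart.

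Depth and the share of reads on microRNAs were close in the 16 libraries but not the same in both groups. A library held 3621172 to 6015371 counts in Q140 and 4807096 to 5816078 in Q20, a difference in means with an adjusted p of 0.0286 by a two-sided exact permutation test over 3 measures. MicroRNAs took 97.0% ± 0.174 (SD, n = 8) of the counts in Q140 and 97.1% ± 0.0467 (SD, n = 8) in Q20, and the 10 most abundant, led by Mir127 and Mir181a-2, took 58.3% ± 1.02 and 57.0% ± 1.12 (SD, n = 8 each) of the microRNA counts (adjusted p = 0.0286 for each, exact permutation). With the LB libraries alone the adjusted p was 0.00400 for the totals, 0.0786 for the share on microRNAs, which lost its call, and 0.00500 for the share of the 10 (exact permutation). No lane number in the sample labels (the L number) is shared between the groups: the Q20 libraries carry 3 or 4, the Q140 libraries 1, 5, 6, 7 or 8, and 2 Q140 male libraries (M2 and M3) carry another library code, V in place of LB, with the numbers 69 and 31. Genotype and L number therefore cannot be told apart in this comparison, whereas the library code was a term of the model. Since Q140 M2 and M3 alone carry V, that term takes up their mean level. Each log2 fold change of Q140 over Q20 at 6 months with that term therefore rests on the LB libraries. Medians, ranges and the n = 8 per group count the V libraries too. The tissue label was checked against neuronal microRNAs, which can mark brain tissue but cannot tell the cortex from other brain regions. Mir9-2 had a median of 30510.3 CPM in Q140 (28448 to 33756) and 31355 in Q20 (28335 to 35873), and Mir128-1 one of 28399 CPM in Q140 (25482 to 31622) and 28779 in Q20 (27534 to 31629). Levels are given as CPM, the count relative to the library's total after TMM scaling.

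The mature sequences of the microRNAs on which the results turn are shown from RefSeq (GRCm38.p6), 5′ to 3′, with the seed (bases 2 to 8) in capitals. The count table has 1 row per hairpin, so the arm named is the one printed and not one that was counted apart. The first set holds the 4 microRNAs with the smallest p among those estimated lower in Q140, apart from the Mir200 and Mir183 families.
miR-21a-5p: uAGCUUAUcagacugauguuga
miR-3071-5p: aCUCAUUUgagacgaugaugga
miR-101a-3p: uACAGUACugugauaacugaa
miR-153-3p: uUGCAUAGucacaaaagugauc

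The second set holds microRNAs estimated higher in Q140, and miR-351-5p is shown above miR-125a-5p because they have the same seed.
miR-667-3p: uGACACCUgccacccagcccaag
miR-877-5p: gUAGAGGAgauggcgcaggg
miR-1198-5p: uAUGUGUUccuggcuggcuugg
miR-127-3p: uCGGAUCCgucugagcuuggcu
miR-300-3p: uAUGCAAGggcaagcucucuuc
miR-653-5p: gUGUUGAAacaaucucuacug
miR-351-5p: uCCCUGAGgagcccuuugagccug
miR-125a-5p: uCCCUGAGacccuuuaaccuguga

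The third set holds the Mir200 and Mir183 families, which differed most between single libraries. The capitals show that miR-200b-3p, miR-200c-3p and miR-429-3p share 1 seed, that miR-200a-3p and miR-141-3p share another, and that miR-182-5p, miR-96-5p and miR-183-5p have near-identical but distinct seeds.
miR-200b-3p: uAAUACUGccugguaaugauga
miR-200c-3p: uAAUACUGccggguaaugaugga
miR-429-3p: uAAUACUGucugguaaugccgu
miR-200a-3p: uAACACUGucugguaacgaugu
miR-141-3p: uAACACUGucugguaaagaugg
miR-182-5p: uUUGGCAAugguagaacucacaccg
miR-96-5p: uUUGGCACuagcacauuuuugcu
miR-183-5p: uAUGGCACugguagaauucacu

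The first question was whether the Q140 repeat is accompanied by different microRNA levels in the cortex at 6 months. Of 446 microRNAs with at least 10 counts in the 16 libraries, 0 (0.0%) passed an FDR of 0.05 with edgeR's two-sided quasi-likelihood test, with sex and library code as covariates. At an unadjusted p under 0.05 there were 35 (7.85%), of which 17 (3.81%) were estimated higher and 18 (4.04%) lower in Q140. Of the 18, 8 belong to the Mir200 and Mir183 families, which move together. With the library size alone as the scaling, 36 had an unadjusted p under 0.05 and 30.6% of these were estimated higher, and with RLE it was 37.8%, against 48.6% with TMM. With the males alone 33 of 38 (86.8%) were estimated higher, with females alone 9 of 18. These 2 fits are not alike, because the library code leaves only M1 and M4 of Q140 to set against the Q20 males. DESeq2's Wald test on the same counts called 9, with 2 higher (Mir122 and Mir667) and 7 lower (Mir21a, Mir3071, Mir101a, Mir96, Mir200a, Mir200b and Mir429). For 0 of the 446 microRNAs (0.0%) did the levels of the 8 Q140 libraries lie entirely outside those of the 8 Q20 libraries.

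The abundant microRNAs were measured closely enough for small differences to be bounded. Among the 157 microRNAs with a mean of at least 1000 counts per library the median SE of the log2 fold change was 0.056, and for 147 of them the 95% interval (not adjusted for the number tested) lay within ±0.5. The median SE was 0.18 for the 73 microRNAs with a mean of 10 to 100 counts and 0.62 for the 121 with fewer than 10, where 0 had an interval within ±0.5. The median log2 fold change over all 446 was 0.021.

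**Figure D1:**
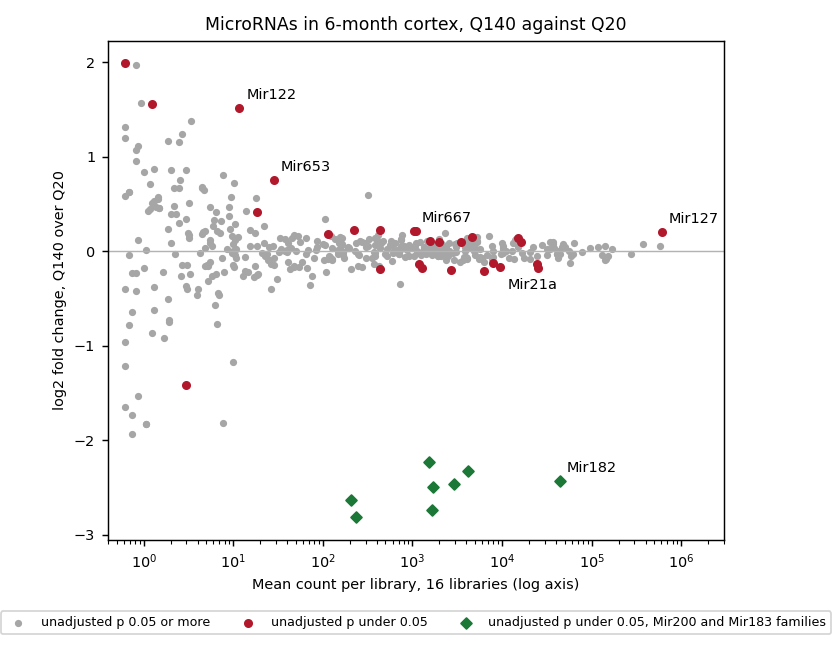
Each point is 1 of 446 microRNAs, with the mean count per library over the 16 libraries on a log axis and the log2 fold change of Q140 over Q20 on the vertical axis, where red points and green diamonds have an unadjusted p under 0.05. Abundant microRNAs lie close to 0, the 8 members of the Mir200 and Mir183 families lie below -2, and the spread widens under 10 counts.

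Mir21a, a microRNA known for its rise in reactive glia and tumours, had the smallest p of the microRNAs estimated lower in Q140 and is transcribed from chr11:86584067-86584158 on the minus strand (GRCm38), overlapping an exon of Vmp1. Its level ran from 1753 to 1958 CPM with a median of 1862 in the 8 Q140 libraries and from 1886 to 2170.0 with a median of 2076 in the 8 Q20 libraries. The groups overlapped, and 4 of 8 Q140 libraries, all from females, lay below every Q20 library. Its log2 fold change was -0.17 ± 0.043 (SE, n = 8 per group, adjusted p = 0.128 with edgeR), with a 95% interval of -0.26 to -0.074, and it passed the threshold in 5 of 30 alternatives. Those 5 were DESeq2 (adjusted p = 0.000385), the fit with all 6-month knock-in libraries, and the fits without Q140 M1, without Q140 M4 and without Q20 M3, and over all alternatives the adjusted p ran from 0.000385 to 0.864 with edgeR or DESeq2. With each library left out in turn the log2 fold change ran from -0.207 to -0.173, a range that does not hold the main value of -0.165.

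The other 3 microRNAs estimated lower in Q140 with a small p had high counts in these libraries. Mir101a, at chr4:101346945-101347027 on the minus strand and overlapping an exon of the long non-coding RNA E130102H24Rik, is known to target Ezh2 and genes of neuronal excitability. It ran from 4523 to 5519 CPM with a median of 4835 in the 8 Q140 libraries and from 4969 to 5420.1 with a median of 5283 in the 8 Q20 libraries. The highest Q140 library, the V library M2, lay above all Q20 libraries, and the other V library, M3, lay within their range at 5078. The 6 LB libraries of Q140 lay below all Q20 libraries. Mir101a had a log2 fold change of -0.14 ± 0.037 (SE, n = 8 per group, adjusted p = 0.128 with edgeR). Mir153, in an intron of Ptprn2 at chr12:117250817-117250885 on the plus strand, is a neuronal microRNA known to target synaptic vesicle genes and alpha-synuclein. It ran from 1085 to 1355 CPM with a median of 1175 in the 8 Q140 libraries and from 1111 to 1459 with a median of 1406 in the 8 Q20 libraries. Its Q20 values lay close together except for F3, which was at 1111, and its log2 fold change was -0.20 ± 0.062 (SE, n = 8 per group, adjusted p = 0.204 with edgeR). Mir3071 lies at chr12:109595318-109595397 on the minus strand, on the strand of Rtl1 and opposite Mir136, which has no row of its own in the table used here. The libraries were made strand-specific, but whether the counting used the strand is not given in the sources used here, so reads of Mir136 and Mir3071 may not be told apart. Its level ran from 4361 to 5457 CPM with a median of 4931 in the 8 Q140 libraries and from 4973 to 5870.2 with a median of 5457 in the 8 Q20 libraries. No Q140 library lay above the Q20 median, 5 lay below the lowest Q20 library, and the log2 fold change was -0.18 ± 0.048 (SE, n = 8 per group, adjusted p = 0.128 with edgeR).

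Among microRNAs estimated higher in Q140, Mir667 of the imprinted Dlk1-Dio3 cluster had groups that nearly separated. It lies at chr12:109720006-109720097 on the plus strand and ran from 214 to 263 CPM with a median of 234 in the 8 Q140 libraries and from 186 to 215 with a median of 203 in the 8 Q20 libraries. The 8 Q140 libraries were all above the Q20 median and 7 were above the highest Q20 library. The log2 fold change was 0.21 ± 0.051 (SE, n = 8 per group, adjusted p = 0.128 with edgeR). Mir877, made from a short intron of Abcf1 at chr17:35960730-35960814 on the minus strand by splicing instead of Drosha cleavage, ran from 46.4 to 53.0 CPM with a median of 50.8 in the 8 Q140 libraries and from 37.0 to 48.7 with a median of 41.0 in the 8 Q20 libraries. All 8 Q140 libraries again lay above the Q20 median, and the log2 fold change was 0.23 ± 0.063 (SE, n = 8 per group, adjusted p = 0.128 with edgeR). Mir1198, in an intron of Gripap1 on chromosome X, ran from 78.2 to 109 CPM with a median of 98.6 in the 8 Q140 libraries and from 79.5 to 90.6 with a median of 85.7 in the 8 Q20 libraries. Of the Q140 libraries 6 were above every Q20 library and 1, the V library M2, was below every one. The log2 fold change of Mir1198 was 0.22 ± 0.067 (SE, n = 8 per group, adjusted p = 0.204 with edgeR).

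Mir351, on chromosome X and with the same seed as the Mir125 family, ran from 197 to 274 CPM with a median of 252 in the 8 Q140 libraries and from 172 to 225 with a median of 203 in the 8 Q20 libraries. All but 2 Q140 libraries lay above the Q20 range, and the log2 fold change was 0.21 ± 0.072 (SE, n = 8 per group, adjusted p = 0.283 with edgeR). Mir300 of the Dlk1-Dio3 cluster ran from 2925 to 3463 CPM with a median of 3355 in the 8 Q140 libraries and from 2796 to 3199 with a median of 2974 in the 8 Q20 libraries, again with 6 libraries above the Q20 range, and had a log2 fold change of 0.14 ± 0.047 (SE, n = 8 per group, adjusted p = 0.283 with edgeR). The most abundant microRNA of these libraries, Mir127, lies antisense to Rtl1 in the same cluster. It ran from 104677 to 173753 CPM with a median of 129155 in the 8 Q140 libraries and from 110683 to 131528 with a median of 120256 in the 8 Q20 libraries. The Q140 libraries were the more spread, with the 2 V libraries at 107721 and 104677, both below every Q20 library, and the other 6 at or above 120289.5. With the library code in the model the log2 fold change was 0.21 ± 0.067 (SE, n = 8 per group, adjusted p = 0.260 with edgeR), and without Q140 M4 it was 0.10. Without the library code the value was 0.12. Mir653, in an intron of Calcr, was close to its counting limit with 18 to 42 counts per library. Its level ran from 4.46 to 11.4 CPM with a median of 7.11 in the 8 Q140 libraries and from 3.52 to 7.22 with a median of 4.34 in the 8 Q20 libraries, with a log2 fold change of 0.76 ± 0.20 (SE, n = 8 per group, adjusted p = 0.128 with edgeR).

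**Figure D2:**
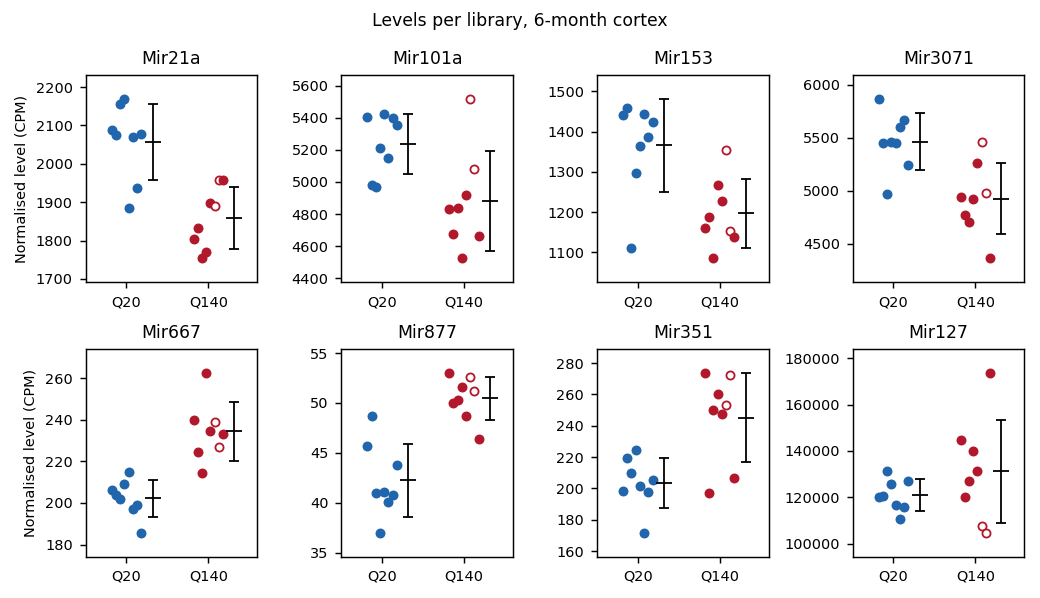
Points are the normalised levels (CPM) of 8 microRNAs in each of the 8 Q20 and 8 Q140 libraries, open symbols are the 2 V libraries, and the bar beside each group is its mean with the SD. The vertical axes do not start at 0. The groups overlap in every panel, with Mir667 and Mir877 nearest to separation.

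Mir122, the liver's most abundant microRNA and nearly absent from brain, had the smallest p of all (unadjusted p = 0.000218). It lies on chromosome 18 at positions 65248861 to 65248926 of the plus strand and gave 4 to 26 counts per library. Its level ran from 0.805 to 6.58 CPM with a median of 4.38 in the 8 Q140 libraries and from 0.811 to 2.56 with a median of 1.32 in the 8 Q20 libraries. The Q140 libraries fell into 2 sets: the 5 with L numbers 5 to 8 (F1 to F4 and M4) held 3.51 to 6.58 CPM, and M1, M2 and M3 held 0.805 to 1.15, within or below the Q20 range. Its log2 fold change was 1.52 ± 0.33 (SE, n = 8 per group, adjusted p = 0.0972 with edgeR), with a 95% interval of 0.83 to 2.21, and it passed the threshold in 5 of 31 alternatives, in which the adjusted p ran from 0.000974 to 0.828 with edgeR or DESeq2.

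Mir122 was also read by L number over the other genotypes. Scaled over all 6-month knock-in libraries, the 5 libraries with L number 5 held 2.16 to 3.51 CPM of Mir122, the 3 with 6 held 6.03 to 7.24, and the 4 with 7 held 5.33 to 11.5, and these sets hold Q92 as well as Q140 mice. The Q92 mice with L number 5 are all female and those with 6 or 7 all male, so that L number and sex cannot be told apart within Q92. The 6 libraries with L number 3 held 0.770 to 1.53 and the 6 with 4 held 0.799 to 2.60, from Q20 and Q111 mice. The 6 with L number 1 held 0.414 to 4.71, the highest from a Q175 mouse. On the L numbers shared by Q140 and Q92 (4 and 8 libraries, of opposite sex on each) the log2 fold change of Q140 over Q92 was -0.088 (adjusted p = 0.903 with edgeR). In that fit Q140 M4, with 12 counts of Mir122, alone lets genotype be told apart from sex. The value therefore cannot show whether the 2 genotypes differ. Of the other liver microRNAs, Mir192 had a median of 1232 CPM in Q140 (1096 to 1364) and 1254 in Q20 (1178 to 1326), Mir194-2 one of 50.4 CPM in Q140 (33.1 to 70.4) and 55.4 in Q20 (46.7 to 78.1), and of the 5 liver microRNAs tested Mir122 alone had an unadjusted p under 0.05, with a list median of 0.058 beside 0.021 over all 446.

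**Figure D3:**
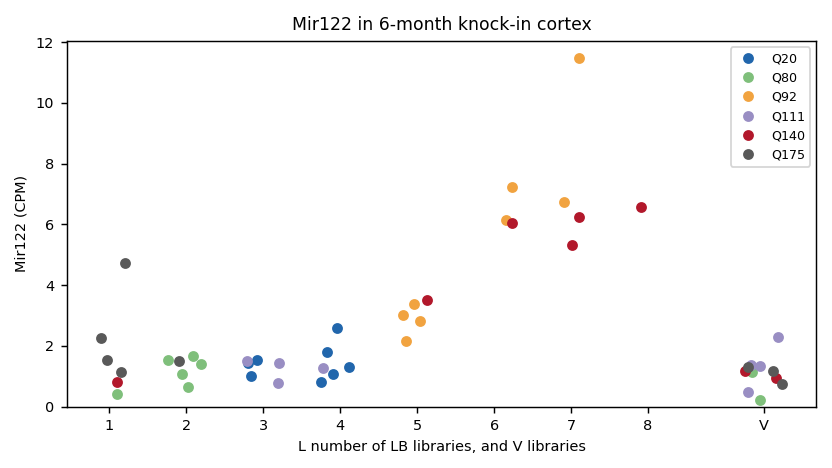
Each point is the Mir122 level (CPM) of 1 of the 6-month knock-in libraries, coloured by genotype and placed by its L number, with the V libraries at the right. The libraries with L numbers 5 to 8 are from Q92 and Q140 mice and lie between 2.16 and 11.5 CPM, and those with 3 or 4, which hold all Q20 libraries, lie under 2.60 or at it.

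The largest differences in size came from the epithelial and olfactory list, the 5 hairpins of the Mir200 family (Mir200a, Mir200b and Mir429 on chromosome 4, Mir200c and Mir141 on chromosome 6) and the 3 of the Mir183 family on chromosome 6. The Mir200 family is known for holding cells in an epithelial state through Zeb1 and Zeb2, and the Mir183 family for sensory neurons. All 8 had an unadjusted p under 0.05 and all were estimated lower in Q140. Over all 446 microRNAs this held for 18 (4.04%), which include these 8. Their log2 fold changes ran from -2.82 to -2.23 with a median of -2.48. The smallest adjusted p of the 8 was 0.276 with edgeR (with DESeq2 Mir96, Mir200a, Mir200b and Mir429 passed). Mir182, the most abundant of them at chr6:30165918-30165992 on the minus strand, ran from 378 to 12592 CPM with a median of 1996 in the 8 Q140 libraries and from 469 to 25814 with a median of 12193 in the 8 Q20 libraries. Its log2 fold change was -2.43 ± 0.89 (SE, n = 8 per group, adjusted p = 0.410 with edgeR), with an interval as wide as -4.37 to -0.49. The highest of the 16 libraries held 68.3 times the lowest for Mir182 and 105 times for Mir96, against 1.24 times for Mir21a.

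The summed level of the 8 was 498 to 15674 CPM in Q140 with a median of 2518 and 612 to 33668 in Q20 with a median of 15668. Of the Q20 libraries F2 alone was low, at 612, and the next held 10055. Of the Q140 libraries M3 was high, at 15674, and M2, the other V library, was the lowest. The 8 moved as 1 block from library to library: over the 16 libraries, which share depth and scaling, their pairwise correlations of log2 levels ran from 0.96 to 0.997. The first principal component of the 325 microRNAs with a mean of at least 10 counts took 66.8% of the variance, and these 8 had its largest loadings. For Mir200b, the member with the narrowest interval, the log2 fold change ran from -2.58 to -1.96 when each library was left out in turn.

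Spread of this size was also seen outside the 6-month Q140 and Q20 libraries. Scaled within each age, Mir182 ran from 346 to 34746 CPM in the 8 libraries of Q111, 366 to 26028 in Q175, 401 to 21567 in Q92 and 446 to 15696 in Q80 at 6 months. At 2 months it ran from 1014 to 24362 in Q20 and 126 to 23168 in Q140, and at 10 months from 178 to 1147 and 166 to 1043. The log2 fold change of Q140 over Q20 for the 8 ran from -1.55 to -1.18 at 2 months and from -0.38 to -0.034 at 10 months. The part that other tissue in the dissection has in these levels was not tested.

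A second set of microRNAs was high in other libraries. Mir204, hosted by Trpm3 and abundant in choroid plexus, ran from 2108 to 5437 CPM with a median of 2679 in the 8 Q140 libraries and from 2180.2 to 4344 with a median of 2326 in the 8 Q20 libraries, and 3 libraries stood apart, namely Q140 F1 at 5437, Q20 F2 at 4344 and Q20 M2 at 4288, with the next at 3003. The same 3 were the highest for Mir448 (69.4, 77.8 and 66.9 CPM) and for Mir1298 (670.0, 740.1 and 602 CPM), both hosted by the serotonin receptor gene Htr2c. They were also the highest for Mir1264 and Mir1912 of that list. Mir211 differed, with its highest levels in Q140 M3 (14.9 CPM) and M2 (14.1) and 4.81 in Q20 M2. For Mir764 the highest was Q20 F2 (37.9 CPM), followed by Q140 F3 (32.9). Mir34c, a microRNA of ciliated cells, was highest in Q140 F1, Q20 F2 and Q20 M2 too, at 924, 1199.6 and 1345 CPM. Mir34b ran from 29.9 to 52.5 CPM with a median of 39.2 in the 8 Q140 libraries and from 23.3 to 68.9 with a median of 33.9 in the 8 Q20 libraries. Libraries of this kind were found in both groups, and 0 of the 7 choroid plexus and Htr2c-hosted microRNAs and 0 of the 4 ciliated-cell microRNAs tested had an unadjusted p under 0.05, with list medians of -0.017 and 0.038. Over the 16 libraries the log2 levels of Mir204 and Mir182 had a correlation of -0.229 (a description over libraries that share depth and scaling). Between members it ran from -0.0018 to 0.96 in the choroid plexus and Htr2c-hosted list and from -0.15 to 0.94 in the ciliated-cell list.

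**Figure D4:**
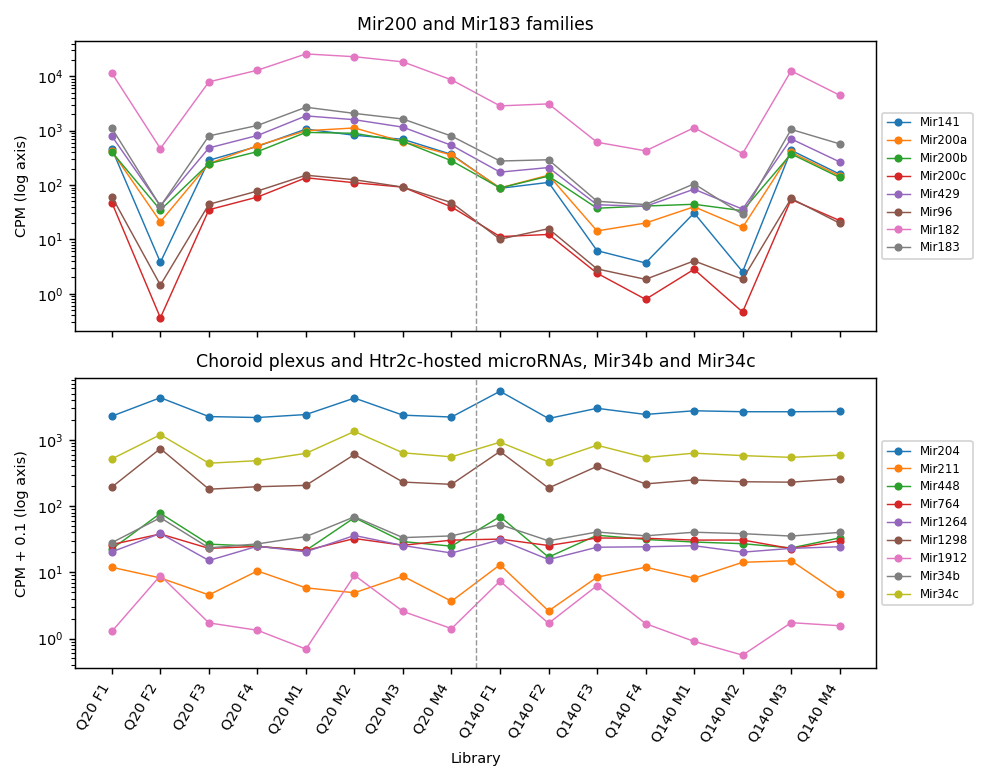
Lines join the normalised levels (CPM, log axes) of single microRNAs across the 8 Q20 libraries, left of the dashed line, and the 8 Q140 libraries, right of it. In the upper panel the 8 members of the Mir200 and Mir183 families go up and down as a block and are low in Q20 F2, and in the lower panel Mir204, Mir448, Mir1298, Mir34b and Mir34c are highest in Q20 F2, Q20 M2 and Q140 F1. Mir211 and Mir764 do not share that pattern.

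Of the 20 neuron-enriched microRNAs tested, 0 passed the FDR with edgeR on the 16 libraries or with DESeq2, and Mir153 passed in the fit of all 6-month knock-in libraries. At an unadjusted p under 0.05 0 were estimated higher and 2 lower in edgeR, beside 3.81% and 4.04% of all 446, and the median log2 fold change was -0.036 beside 0.021 over all 446. Their summed level was 89584 to 98326 CPM in Q140 and 91653 to 105711 in Q20. The 2 with a low p were Mir153 (above) and Mir9-3, which ran from 430.2 to 606 CPM with a median of 515.6 in the 8 Q140 libraries and from 479 to 707 with a median of 563 in the 8 Q20 libraries and had a log2 fold change of -0.20 ± 0.088 (SE, n = 8 per group, adjusted p = 0.523 with edgeR). The mature Mir9 is also made by Mir9-1 and Mir9-2, so the split of its reads between loci is uncertain, and the far more abundant Mir9-2 did not have an unadjusted p under 0.05. Mir128-1, a neuronal microRNA that restrains excitability, had a log2 fold change of -0.093 ± 0.047 (SE, n = 8 per group, adjusted p = 0.581 with edgeR), which is also uncertain because Mir128-2 makes the same mature sequence. Of the 10 microRNAs known to be repressed by REST, the silencer of neuronal genes that huntingtin normally holds in the cytoplasm, Mir9-3 alone had an unadjusted p under 0.05, and the list median was -0.031.

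The activity-regulated microRNAs, induced in neurons through CREB or enriched in dendrites, gave 0 of 6 in each direction at an unadjusted p under 0.05, and their median log2 fold change was 0.017 with TMM and -0.0026 with the library size alone. Mir132, which promotes dendrite growth and is transcribed together with Mir212 from chromosome 11, ran from 5784 to 7303 CPM with a median of 6608 in the 8 Q140 libraries and from 6316 to 7079 with a median of 6682 in the 8 Q20 libraries. Of its Q140 libraries 3 lay below the Q20 range and 1 above it, and the log2 fold change was -0.037 ± 0.046 (SE, n = 8 per group, adjusted p = 0.812 with edgeR), with a 95% interval of -0.13 to 0.060 and values from -0.097 to -0.017 with each library left out in turn. Mir212 ran from 1035 to 1385 CPM with a median of 1264 in the 8 Q140 libraries and from 1227 to 1476 with a median of 1277 in the 8 Q20 libraries. Of its Q140 libraries 3 lay below the Q20 range and 0 above, and the log2 fold change was -0.11 ± 0.061 (SE, n = 8 per group, adjusted p = 0.581 with edgeR), with an interval of -0.24 to 0.020. Mir381 of the same list had a median of 2749 CPM in Q140 (2378 to 3069) and 2641 in Q20 (2389.5 to 2836).

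Large families gave few low p-values. The Mir181 family, known from synaptic plasticity, had its 6 members at log2 fold changes between 0.025 and 0.11, none of them with an unadjusted p under 0.05, and Mir181a-2 had a median of 121029.9 CPM in Q140 (108403 to 137444) and 116836 in Q20 (103290.2 to 140788) and Mir181b-1 of 7077 CPM in Q140 (6256 to 7406) and 6934 in Q20 (6411 to 7812). The Mir15 and Mir16 family, inhibitors of the cell cycle, had its 5 members between 0.0078 and 0.14, with Mir16-1 at a median of 7915 CPM in Q140 (6981 to 8916) and 7724 in Q20 (6923 to 8698). In the let-7 family, which blocks growth genes in mature cells, 8 of 10 members were estimated below 0, beside 195 of all 446, and the list median was -0.063 beside 0.021. Its most abundant hairpins, Mirlet7f-2 and Mirlet7a-1, had medians of 28096 CPM in Q140 (25399 to 32916) and 30197 in Q20 (28301 to 34287) and of 12119.6 CPM in Q140 (10647 to 14428) and 12628 in Q20 (11449 to 15019.7). The Mir99, Mir100 and Mir125 families had a median of 0.085, with Mir125a at 13801 CPM in Q140 (11449.7 to 15129) and 12566 in Q20 (11613 to 14103) and Mir125b-2 at 8135 CPM in Q140 (6652 to 8715) and 7146 in Q20 (6410.1 to 8445).

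Of the Mir30 family Mir30c-1 alone had a low p. It ran from 907 to 1095 CPM with a median of 1003 in the 8 Q140 libraries and from 790.1 to 1061 with a median of 918 in the 8 Q20 libraries, and its log2 fold change was 0.15 ± 0.053 (SE, n = 8 per group, adjusted p = 0.323 with edgeR), while Mir30c-2 makes the same mature microRNA. Mir30a had a median of 34339 CPM in Q140 (31989 to 38491) and 35199 in Q20 (32615 to 38040.0) and Mir30d of 24436 CPM in Q140 (23508 to 25418) and 23749 in Q20 (22936 to 24960.3). The Mir29 family, known to rise as neurons mature, had members from -0.089 to 0.063, with Mir29a at a median of 15718 CPM in Q140 (14964 to 16537) and 15947 in Q20 (15215 to 17021) and Mir29c at 1995 CPM in Q140 (1904 to 2166.2) and 2048 in Q20 (1945 to 2151). Of the 14 microRNAs of the Mir17-92 cluster and its paralogs, which drive proliferation, Mir20a had an unadjusted p under 0.05, at a median of 24.5 CPM in Q140 (22.6 to 26.2) and 23.1 in Q20 (18.9 to 24.8) and a log2 fold change of 0.18 ± 0.078 (SE, n = 8 per group, adjusted p = 0.492 with edgeR). Mir92-1 had a median of 3041 CPM in Q140 (2552 to 3575) and 2869.6 in Q20 (2452 to 3151).

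Mir221 and Mir222, which are transcribed together, lay at medians of 2127 CPM in Q140 (1951 to 2258) and 2118 in Q20 (1940.4 to 2435) and of 2278 CPM in Q140 (2157 to 2591) and 2334 in Q20 (2048 to 2536). The 3 members of the Mir135 family ran between -0.15 and 0.058 in log2 fold change, with Mir135a-1 at 106 CPM in Q140 (85.6 to 148) and 105 in Q20 (94.5 to 114) and Mir135a-2 at 83.5 CPM in Q140 (65.97 to 120.4) and 85.4 in Q20 (76.8 to 109.5). Among 4 microRNAs made without Drosha, Mir877 (above) was the only one with an unadjusted p under 0.05, and Mir484 and Mir320 had medians of 397 CPM in Q140 (354 to 420.3) and 409 in Q20 (364 to 452.3) and of 229 CPM in Q140 (209 to 252) and 231 in Q20 (205 to 265). Hox-cluster microRNAs, which mark hindbrain and spinal cord, were present at a low level, Mir10b at 235 CPM in Q140 (164 to 336) and 233 in Q20 (168 to 267) and Mir10a at 159 CPM in Q140 (115 to 202) and 134 in Q20 (128 to 206).

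Marker microRNAs of the other cells in cortical tissue were present in all libraries at levels that overlapped between the groups. Oligodendrocyte markers summed to 2754 to 3612 CPM in Q140 and 2778 to 3572 in Q20, with Mir338 at a median of 2610.5 CPM in Q140 (2289 to 2967) and 2596 in Q20 (2300.3 to 2940.2) and Mir219a-2 at 505 CPM in Q140 (459.6 to 638) and 525 in Q20 (475 to 624). Endothelial and mural markers summed to 33723 to 41660.4 CPM in Q140 and 32481 to 39493 in Q20, with Mir143 at 26264 CPM in Q140 (23557 to 30650.0) and 27486 in Q20 (23908 to 29528) and Mir126a at 9736 CPM in Q140 (8714 to 10807) and 9419 in Q20 (8370.5 to 10008). Of the 8 microglial and leukocyte microRNAs Mir21a was the only one with an unadjusted p under 0.05, and the list summed to 5611 to 7028 CPM in Q140 and 5609.8 to 6965 in Q20, led by Mir146b at 2109 CPM in Q140 (1598 to 2875) and 1994 in Q20 (1749 to 2702). Erythrocyte markers summed to 3388 to 4001 CPM in Q140 and 3177 to 3715 in Q20. Among these Mir486 had a median of 3378 CPM in Q140 (3200.1 to 3779) and 3228 in Q20 (2975 to 3501) and a log2 fold change of 0.10 ± 0.047 (SE, n = 8 per group, adjusted p = 0.581 with edgeR), which was 0.053 without Q140 F1, 0.067 without Q20 F1 and 0.064 without Q20 F4, while Mir451a, the red cell microRNA made by Argonaute itself, had a median of 172 CPM in Q140 (136 to 217) and 176 in Q20 (158 to 193). Meningeal and fibroblast markers summed to 65.0 to 92.7 CPM in Q140 and 71.9 to 92.4 in Q20, with Mir199a-1 at 73.6 CPM in Q140 (62.0 to 87.4) and 78.8 in Q20 (67.6 to 84.3) and Mir214 at 1.86 CPM in Q140 (1.58 to 2.82) and 2.11 in Q20 (1.65 to 2.43). Muscle microRNAs summed to 144 to 184 CPM in Q140 and 158 to 184 in Q20, with Mir133a-1 at 145 CPM in Q140 (119 to 157) and 144 in Q20 (139 to 156) and Mir1a-1 at 14.1 CPM in Q140 (6.43 to 22.4) and 15.7 in Q20 (9.88 to 20.3).

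The imprinted Dlk1-Dio3 cluster on chromosome 12, taken by position on both strands, is the longest list, with 47 microRNAs tested. Of these 0 passed the FDR with edgeR on the 16 libraries, and Mir667 and Mir3071 passed with DESeq2 and in the fit of all 6-month knock-in libraries. At an unadjusted p under 0.05 5 were estimated higher and 2 lower in edgeR, beside 3.81% and 4.04% of all 446, and 32 had an estimate above 0, beside 251 of all 446. The median log2 fold change was 0.051 beside 0.021 over all 446, and the summed level was 178263 to 252381 CPM in Q140 and 183183 to 205824 in Q20. The 7 were Mir667, Mir127, Mir300 and Mir3071 (above), Mir666 at a log2 fold change of 0.11 ± 0.051 (SE, n = 8 per group, adjusted p = 0.581 with edgeR) and 0.048 without Q140 F4, Mir3072 at 0.41 ± 0.16 (SE, n = 8 per group, adjusted p = 0.492 with edgeR) from a median of 4.58 CPM in Q140 (2.74 to 5.55) and 3.22 in Q20 (2.47 to 3.85), and Mir337 at -0.13 ± 0.058 (SE, n = 8 per group, adjusted p = 0.492 with edgeR). Mir434, the cluster's second most abundant member, had a median of 29826 CPM in Q140 (26997 to 30775) and 28087 in Q20 (26402 to 30607). In the rodent-specific Sfmbt2 cluster on chromosome 2, whose hairpins are repeated copies in an intron, 0 of 26 tested had an unadjusted p under 0.05 in either direction, with a median of 0.031. Reads cannot be assigned surely among such copies, and the most abundant, Mir467a-1 and Mir669c, had medians of 13.9 CPM in Q140 (11.1 to 16.5) and 12.6 in Q20 (9.28 to 15.2) and of 10.8 CPM in Q140 (9.49 to 14.5) and 10.6 in Q20 (8.31 to 12.1).

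**Figure D5:**
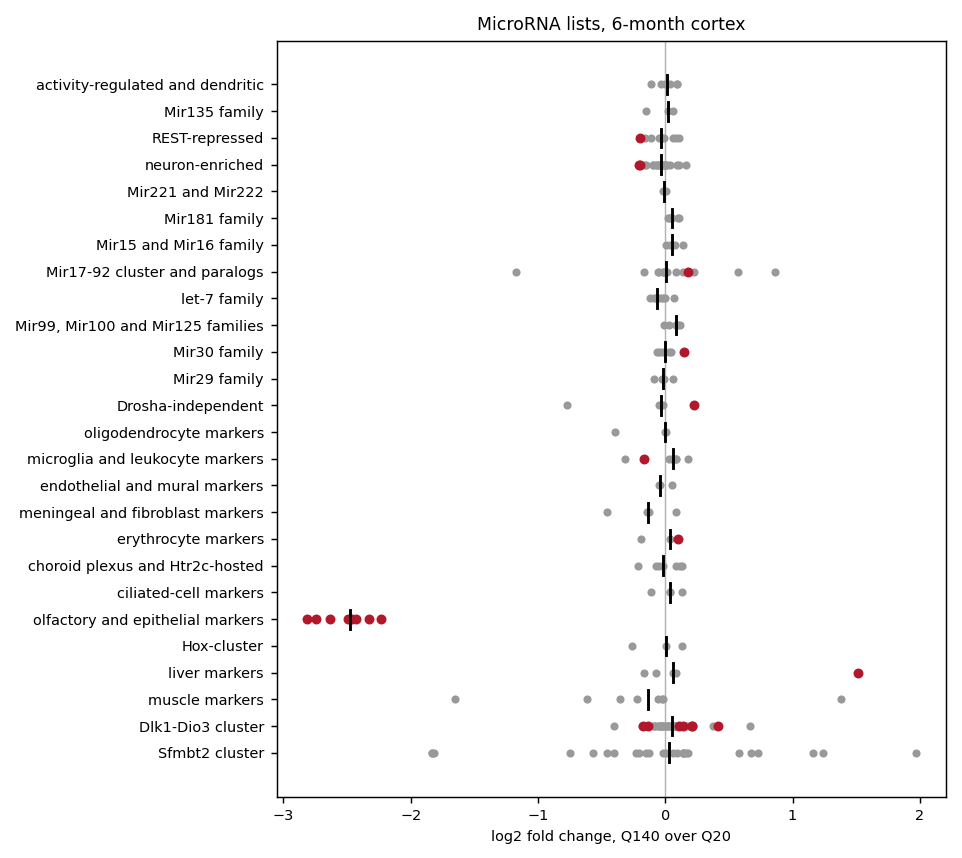
Points are the log2 fold changes (Q140 over Q20) of the tested members of 26 microRNA lists, red where the unadjusted p is under 0.05, and the black bar is the list's median. The epithelial list lies near -2.48, Mir122 stands alone at 1.52 in the liver list, and the medians of the other lists lie within 0.14 of 0.

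Sex was tested next, since each group held 4 females and 4 males. The interaction of sex and genotype passed the FDR for 0 of 446 microRNAs with edgeR, where 31 (6.95%) had an unadjusted p under 0.05, and for 1, Mir103-1, with DESeq2 (adjusted p = 0.0341). Mir103-1, in an intron of Pank3, held 987 ± 123 CPM in Q140 females and 1316 ± 192 in Q140 males, against 1078 ± 60.3 and 989.7 ± 121 in Q20 (SD, n = 4 each). The log2 difference between male and female effects was 0.68 ± 0.15 (SE), with an adjusted p of 0.150 in edgeR. With the library code in the model, the Q140 male part of each interaction rests on the LB males M1 and M4. The levels given are those of all 4 males. Mir103-2 makes the same mature microRNA. Mir25, of the Mir106b-25 cluster in Mcm7, held 537 ± 42.6 CPM in Q140 females, 612 ± 59.9 in Q140 males, 604 ± 38.5 in Q20 females and 566 ± 23.1 in Q20 males (SD, n = 4 each), with an interaction of 0.37 ± 0.11 (SE) and an adjusted p of 0.484 in edgeR. Mir21a held 1790.4 ± 35.7 CPM in Q140 and 2122 ± 47.9 in Q20 females and 1926 ± 36.5 and 1992 ± 96.2 in males (SD, n = 4 each), and its interaction did not pass either (adjusted p = 0.484 in edgeR). The Q140 females carry L numbers 6 to 8 and the males other numbers or the V code, so sex and L number cannot be told apart within Q140. The V code is held by 2 Q140 males only, and its own coefficient passed the FDR for 0 of 446 in edgeR and in DESeq2, with 21 (4.71%) at an unadjusted p under 0.05 in edgeR.

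The same contrast was then taken in other mice, at 10 and at 2 months. At 10 months 0 of 446 microRNAs passed the FDR with edgeR, where 33 (7.4%) had an unadjusted p under 0.05, and DESeq2 called 2 (Mir135b and Mir133a-2). At 2 months it was 0 of 459 with both tools and 13 (2.83%) at an unadjusted p under 0.05 in edgeR. Of the 35 microRNAs with an unadjusted p under 0.05 at 6 months, 25 had an estimate of the same sign at 10 months and 20 at 2 months. Without the 8 epithelial microRNAs, which move together, these were 17 and 12 of 27, beside 53.1% and 50.1% of all microRNAs tested at both ages. Only Mir224 had an unadjusted p under 0.05 at 6 and at 10 months, and its signs were opposite (it is named because it was the only one, after its values were seen). The log2 fold change of Mir21a was 0.039 at 10 months and 0.044 at 2 months, that of Mir667 was 0.11 and -0.032, and that of Mir101a was 0.094 and -0.027. Mir212 was at -0.21 (adjusted p = 0.586 with edgeR) at 10 months. The interaction of age and genotype between 6 and 10 months passed the FDR for 0 of 481 microRNAs with edgeR and with DESeq2, with 44 (9.15%) at an unadjusted p under 0.05 in edgeR, so a difference between the ages was not shown for any of them.

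Neighbouring genotypes at 6 months give values to set beside these, although they share libraries with the main comparison. The Q175 comparison uses the same 8 Q20 libraries, and it passed the FDR for 5 of 453 microRNAs (1.1%) with edgeR. For these the log2 fold change of Q175 over Q20 was -0.23 (adjusted p = 0.00920) for Mir21a, -0.26 (adjusted p = 0.00920) for Mir132, -0.20 (adjusted p = 0.0361) for Mir128-1, 0.26 (adjusted p = 0.00920) for Mir181a-1 and 0.51 (adjusted p = 0.0154) for Mir16-2. In Q140 over Q20 the same microRNAs stood at -0.17, -0.037, -0.093, 0.048 and 0.14, and 0 of the 5 passed with edgeR on the 16 libraries, while Mir21a passed with DESeq2 and in the fit of all 6-month knock-in libraries. Against Q92 on the 3 L numbers that both groups hold, with 4 Q140 and 8 Q92 libraries, 2 of 431 (0.464%) passed the FDR with edgeR. On each of these L numbers the Q140 and Q92 mice are of opposite sex, so that Q140 M4, the only male of the 4, alone lets genotype be told apart from sex, and without it the model could not be fitted. Mir212 stood at -0.37 (adjusted p = 0.0187) in Q140 over Q92 and did not pass without Q140 F1, at -0.34 (adjusted p = 0.110 with edgeR), and Mir132 stood at -0.16 (adjusted p = 0.363). Mir3963 was at 0.99 (adjusted p = 3.12e-05). Its level was 227 CPM in Q140 M4 and 49.4 to 67.2 in the other 15 libraries of the Q140 and Q20 groups. Over Q20 its log2 fold change was 0.59 ± 0.29 (SE, n = 8 per group, adjusted p = 0.581 with edgeR), and 0.036 without Q140 M4.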

How the data were processed

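Small RNA from mouse cortex was sequenced strand-specifically as 36-base single-end reads on Illumina instruments, and STAR placed the clipped reads on mm10. The table the authors deposited holds estimated counts, not normalized, for each transcript by its Ensembl ID, and CASAVA 1.8.2 is named in the submitters' processing notes. Of the values of the 16 libraries above 0, 46.1% are not whole, so the estimated counts were rounded. A deposited FPKM table was not used. Transcripts were named with GENCODE vM21 (GRCm38), and the 638 microRNA transcripts held 97.1% of the counts.

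Groups came from the sample labels. For 1 Q20 library of 10 months, labelled female but with a cage code otherwise held by males only, the fits used the sex of the cage, male. edgeR 4.0.16 in R 4.3.3 was run with TMM and its quasi-likelihood test (two-sided, robust) on microRNAs with at least 10 counts in all, with sex and library code as covariates and Benjamini-Hochberg adjustment over all microRNAs tested. Library totals were taken over all transcripts, and library measures were compared by exact permutation. Alternatives were RLE, library size alone, DESeq2 1.42.0, other filters, features, covariates and samples, and each library left out in turn. The code was tested on simulated counts. For rare microRNAs counting error limits the precision. Of the 446 microRNAs tested, 393 had a RefSeq mature sequence.

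The members, lists and alternatives were chosen with earlier results of these data known. Named microRNAs are the calls of a comparison with at most 5 calls, the 8 estimated higher and 8 lower with the smallest unadjusted p under 0.05 and a mean of at least 10 counts, the 2 most abundant of each of 26 lists with every member under an unadjusted p of 0.05, and the 2 with the smallest p in the interaction with sex. Libraries of 1 group are from separate mice and no pair of them held near-identical counts.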

Additional observations from a re-analysis of the deposited data

Results flagged for a closer look

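In groups of 8, a library was marked when its gap to the nearest other value exceeded the share of the group's range given by Dixon's 95% critical value. Of 106 groups of values tested, 10 had such a library. Chance alone marks about 1 in 20 where values are independent and normally distributed. The groups tested here share libraries, and sums were tested beside their own members, so the 10 are not to be set against that rate.

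The epithelial microRNAs give 5 of them, all from 1 library. In Q140 M3, one of the 2 V libraries, the summed level of the 8 was 15674 CPM with the next Q140 library at 5823. Mir200a stood at 400.1 CPM there (next 152), Mir200b at 374 (next 146), Mir429 at 706.03 (next 267) and Mir96 at 56.6 (next 19.9). Those values are within the range of the Q20 libraries.

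Choroid plexus and Htr2c-hosted microRNAs summed to 6259.6 CPM in Q140 F1, with the next Q140 library at 3509. Mir3963 held 227 CPM in Q140 M4, with the next at 62.8. This library also had the smallest total of the 16, 3621172 counts. The Mir135 family summed to 282 CPM in the same library, with the next at 253. Mir153 was at 1111 CPM in Q20 F3, below the next at 1296, and Mir653 at 7.22 CPM in Q20 M2, above the next at 5.25.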

How the results depend on the processing

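The count of 0 calls at an FDR of 0.05 became 9 with DESeq2, 5 in 1 fit of all 6-month knock-in libraries (Mir21a, Mir3071, Mir667, Mir153 and Mir122), 1 without the sex term (Mir122) and 1 with females only (Mir122), and it was 0 with the other planned settings (leaving out single libraries apart) and with males only. Without each library in turn it ran from 0 to 2: 2 without Q140 M1 (Mir122 and Mir21a), 1 without Q140 M4 and 1 without Q20 M3 (Mir21a in each). Counts at an unadjusted p under 0.05 ran from 31 to 52 with a library left out, were 53 with all 631 transcripts and 18 with females only. With DESeq2 the interaction with sex had 1 call and the 10-month contrast 2, and with filterByExpr the interaction with sex had 17 microRNAs at an unadjusted p under 0.05. The V coefficient and the 2-month and age results kept 0 calls under their alternatives. The fits of each sex and the LB-only library measures were added after seeing the data. With LB libraries alone the difference in the share on microRNAs was -0.138 percentage points with an adjusted p of 0.0786 (exact permutation). Of 35 microRNAs with a fold change in the text, 29 kept their sign in every setting. The others turned to -0.12 (Mir103-1), -0.060 (Mir181a-1) and -0.023 (Mir3963) with females only, to 0.20 (Mir25) and 0.072 (Mir9-3) with males only, to -0.075 (Mir16-2) and -0.031 (Mir181a-1) without Q140 M1, and to 0.0081 (Mir25) without Q140 F2. With males only, the library code leaves M1 and M4 of Q140 to estimate the difference. The range with a library left out was -0.075 to 0.23 for Mir16-2, -0.031 to 0.054 for Mir181a-1 and -0.099 to 0.0081 for Mir25. Leaving out 1 library moved these log2 fold changes by over 1.5 times: Mir103-1 to 0.024 without Q140 M1 and 0.10 without Q140 M4, Mir128-1 to -0.14 without Q140 F3, Mir212 to -0.17 without Q140 F4 and -0.069 without Q140 M4, Mir300 to 0.088 without Q20 F4, Mir30c-1 to 0.092 and Mir9-3 to -0.30 without Q140 M1, and Mir127, Mir132, Mir486, Mir666 and Mir3963 as given above. The share estimated higher at an unadjusted p under 0.05 ran from 22.6% (without Q140 F4) to 48.1% with a library left out, all below the 48.6% of the main fit. The cause was not tested. Leaving out 1 Q140 library in turn gave 1 to 5 calls in the comparison with Q92 (1 without F1, 5 without F2, 2 without F3, added after seeing the data). Libraries with the same sex and replicate number in the 2 groups share only a number: their deviations correlated from -0.53 to 0.61 over 325 microRNAs, and with that number as a replicate block there were 0 calls and 25 microRNAs at an unadjusted p under 0.05, 64.0% of them estimated higher. With sex as labelled (added after seeing the data) 0 microRNAs passed at 10 months (39 at an unadjusted p under 0.05), and 0 in the interaction with age (41). Low counts limit the 121 microRNAs with a mean under 10.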

Other observations

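The level of Mir667 was also read in the mice of other ages, with each age scaled on its own. It held 205 ± 9.36 CPM in Q20 and 236 ± 14.2 in Q140 mice at 6 months, 422 ± 67.1 and 409 ± 38.0 at 2 months, and 378 ± 42.4 and 404 ± 26.3 at 10 months (SD, n = 8 each). The difference between ages was not tested.

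Mir122 reached higher levels in single libraries of both groups at the other ages. At 2 months it ran from 0.376 to 27.3 CPM in Q140 and 0.219 to 5.72 in Q20, and at 10 months from 0.376 to 8.41 and 0.578 to 7.06 (n = 8 each).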
